A study of Mus musculus with 12 samples.

Results

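Purkinje cells of the cerebellum are not uniform. They lie in parasagittal stripes that express aldolase C, known as zebrin II, or lack it, and a set of other proteins follows these stripes in the same or in the opposite pattern. The stripes differ in how their cells fire and in which climbing fibers reach them, and in several mouse models of ataxia Purkinje cells of one class are lost before those of the other. The genes described here were 8 genes known for expression in one of these classes, taken by their gene name in GENCODE vM21 from the 55536 genes of the count tables. Of these, 5 were assigned to the zebrin-positive class (*Aldoc*, *Plcb3*, *Slc1a6*, *Ncs1* and *Hspb1*) and 3 to the zebrin-negative class (*Plcb4*, *Ebf2* and *Nefh*), from general knowledge of the stripes and not from these values.

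RNA-Seq was performed on 2 tissues at 1 month of age, whole cerebellum and cerebral cortex. Each tissue was taken from 3 WT and from 3 *Snx14*-KO animals, with 1 library per sample. The *Snx14*-KO mice carried a 1-base deletion made with Cas9 in C57BL/6J embryos, which shifts the reading frame of *Snx14* in every cell of the body, and the WT mice were control littermates. SNX14 is a sorting nexin of the endoplasmic reticulum with a role at lipid droplets, and the study asked how its loss affects the cerebellum, with the cortex as the tissue to compare it with. No other allele or treatment was given for any group, and the labels number the mice 1 to 3 in each. The tissue was a mixture of cells. A stripe was therefore never measured by itself, and the anterior and posterior lobes were not separated.

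The 12 libraries held 16672589 to 19887427 counts on genes. *Snx14* itself was lower in *Snx14*-KO cerebella by 2.57 on the log2 scale (log2 fold change -2.57, adjusted p = 1.69e-06, edgeR) and in *Snx14*-KO cortices (log2 fold change -2.80, adjusted p = 3.19e-08, edgeR). The 17 Purkinje cell marker genes summed to 11608 to 15784 CPM per cerebellum and 1924 to 2060 CPM per cortex, and the 10 forebrain neuron genes to 505 to 603 CPM per cerebellum and 5057 to 5776 CPM per cortex. Each tissue thus carried the markers of its label. *Snx14*-KO cerebellum replicates 1 and 3 stood apart from the other 4 cerebella in *Slc17a6*, a transporter of excitatory neurons of deep nuclei and brainstem, with 63.5 and 67.2 TPM against 13.96 to 18.26 TPM, and in *Lhx9*, with 6.91 and 7.80 TPM against 0.137 to 0.495 TPM. These genes were singled out after their values were seen.

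Of the 8 genes, 6 had an entry in the table of RefSeq promoters used here (GRCm38.p6). 2 of these windows are shown because they belong to the most abundant of the 8 genes and to the one with the largest difference between the tissues, and because they differ in composition. The bases are those before the annotated start of the gene in GENCODE, on the plus strand, with each CG dinucleotide in capitals.
Aldoc, chr11:78322823-78322967: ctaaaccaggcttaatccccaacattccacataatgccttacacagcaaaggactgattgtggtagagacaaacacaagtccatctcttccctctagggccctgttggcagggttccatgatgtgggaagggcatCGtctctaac
Slc1a6, chr10:78780246-78780495: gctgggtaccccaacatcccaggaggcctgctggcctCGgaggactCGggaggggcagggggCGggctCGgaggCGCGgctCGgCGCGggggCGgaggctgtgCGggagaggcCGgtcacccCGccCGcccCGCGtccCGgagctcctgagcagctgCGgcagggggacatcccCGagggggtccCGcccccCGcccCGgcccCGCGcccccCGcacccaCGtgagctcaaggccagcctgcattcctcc
Over the whole 250-base windows before the RefSeq starts, the *Aldoc* window held 5 CG dinucleotides and 55.2% G and C bases, near the medians of 6 and 52.4% over 32851 promoters. The *Slc1a6* window held 26 CG dinucleotides and 78.8% G and C bases. The *Plcb4* window was richest, with 42 and 85.2%, followed in CG count by *Ncs1* with 34 and 75.6%, while *Plcb3* had 20 and 64.4% and *Hspb1* 12 and 59.2%. High and low values therefore occurred within the zebrin-positive class. The RefSeq start of *Plcb3* lies 6656 bases inside the GENCODE gene, so its window is not that of the longest transcript. That of *Plcb4* lies 536 bases inside, so its whole window also falls within the annotated gene and not before it. Heat shock elements are built from repeats that face each other in either of 2 ways, TTCNNGAA and GAANNTTC, and each of these reads the same on both strands. TTCNNGAA was found in none of the 6 windows and in 7.17% of the 32851. GAANNTTC was found in the *Hspb1* window, with 2 matches that begin 117 and 97 bases before the RefSeq start, in none of the other 5 windows and in 6.69% of the 32851.

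In WT cerebellum the 8 genes spanned a wide range of levels per transcript length, given as TPM. *Aldoc*, the zebrin II antigen and a glycolytic enzyme, was by far the most abundant, at 2526, 2396 and 2308 TPM in the 3 WT cerebella. *Slc1a6*, which encodes the glutamate transporter EAAT4 of Purkinje cell spines, followed at 349, 301 and 252 TPM. *Nefh*, the heavy neurofilament chain of large axons, was at 142, 131 and 148 TPM. *Ncs1*, a calcium sensor of many neuron types, was at 144, 131 and 147 TPM, so these 2 genes overlapped. *Plcb4*, the phospholipase C that relays G protein-coupled receptor signals in zebrin-negative cells, was at 114, 118 and 122 TPM, below every *Nefh* and *Ncs1* value. *Plcb3*, the phospholipase C that takes this place in zebrin-positive cells, was at 44.0, 42.1 and 31.1 TPM. *Hspb1*, the small heat shock protein HSP25, was at 17.02, 21.7 and 42.1 TPM, and its values overlapped those of *Plcb3*. *Ebf2*, a transcription factor that represses zebrin-positive features in zebrin-negative cells, was lowest, at 6.42, 7.24 and 8.76 TPM.

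**Figure D1:**
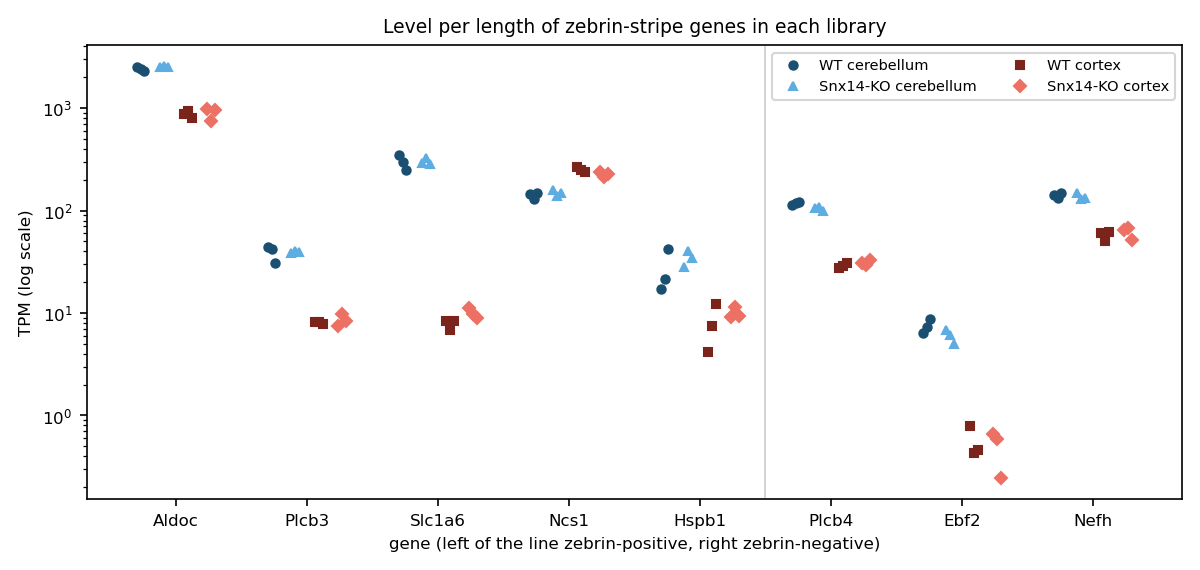
Level per length (TPM, log axis) of the 8 zebrin-stripe genes in each of the 12 libraries, 1 symbol per library, with a marker shape for each tissue and genotype. 7 genes lie higher in cerebellum than in cortex without overlap, and Ncs1 lies higher in cortex.

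How far each gene was read from the cerebellum was asked in the WT libraries alone. All 8 genes differed between WT cerebellum and WT cortex (edgeR, adjusted p under 0.05 with a log2 fold change beyond 0.5 in size), with 7 higher in cerebellum and 1 lower, where 40.4% of the 18543 genes tested differed, 19% higher and 21.4% lower. The libraries of the tissues did not overlap for any of the 8, against 64.5% of all genes. *Slc1a6* was at 8.41, 6.76 and 8.38 TPM in WT cortex, for a log2 fold change of 5.20 (95% interval 4.85 to 5.55, adjusted p = 1.11e-09, edgeR). *Ebf2* was at 0.797, 0.435 and 0.459 TPM there, for a log2 fold change of 3.66 (95% interval 3.17 to 4.16, adjusted p = 2.08e-07, edgeR). Each class thus held 1 gene that was nearly restricted to cerebellum among these 2 tissues. The phospholipases followed, with a log2 fold change of 2.21 for *Plcb3* and 1.95 for *Plcb4*. *Hspb1* (1.68), *Aldoc* (1.41) and *Nefh* (1.22) were higher in cerebellum by less, and WT cortex still held 873, 940 and 805 TPM of *Aldoc*. *Ncs1* was lower in cerebellum, with a log2 fold change of -0.91 (95% interval -1.05 to -0.77, adjusted p = 6.02e-07, edgeR), at 268, 249 and 240.03 TPM in WT cortex. Of 3 further zebrin-positive genes, *Prkcd* (3.95) and *Sphk1* (1.30) passed the same test and *Gabbr2* (-0.37) missed its fold threshold.

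The composition of gene families placed the striped members among their relatives. *Aldoc* made up 63.8% ± 1.79 (SD, n = 3) of the summed TPM of *Aldoa* and *Aldoc* in WT cerebellum and 34.9% ± 1.88 in WT cortex. Of the 4 phospholipase C beta genes, *Plcb4* held 63.3% ± 2.52 and *Plcb3* 21.0% ± 3.62 in WT cerebellum, against 23.4% ± 0.875 and 6.54% ± 0.388 in WT cortex. The zebrin-negative enzyme was thus more abundant than the zebrin-positive one in bulk cerebellum, with a ratio of *Plcb4* to *Plcb3* of 2.58, 2.81 and 3.91 in the 3 WT libraries. This was not particular to cerebellum, as the ratio was 3.355, 3.492 and 3.915 in the WT cortices. In *Snx14*-KO cerebella the ratio was 2.743, 2.688 and 2.499, overlapping WT. *Slc1a6* held 21.6% ± 3.49 of the 5 glutamate transporters in WT cerebellum and 0.614% ± 0.11 in WT cortex. *Nefh* held 20.1% ± 1.05 of the 3 neurofilament chains *Nefl*, *Nefm* and *Nefh* in WT cerebellum and 7.46% ± 0.646 in WT cortex. *Ebf2* held 20.3% ± 3.8 of the 4 EBF factors in WT cerebellum. In *Snx14*-KO cerebella these shares were 64.5% ± 1.36 for *Aldoc*, 59.2% ± 2.42 for *Plcb4*, 22.4% ± 0.617 for *Plcb3*, 19.7% ± 1.5 for *Slc1a6*, 19.2% ± 0.167 for *Nefh* and 17% ± 2.22 for *Ebf2*. The *Plcb4* share was 59.5%, 61.4% and 56.6% in the *Snx14*-KO libraries and 61.8%, 62.0% and 66.3% in the WT libraries, without overlap, and no test was made of a share.

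Whether either class changed in *Snx14*-KO cerebella at 1 month was then examined. None of the 8 genes passed the test between *Snx14*-KO and WT cerebella (edgeR, the same thresholds), where 0.00549% of the 18201 genes tested passed it, which was *Snx14* alone. DESeq2 also called none of the 8, against 0.901% of all genes. At an unadjusted p under 0.05 edgeR counted 1 of the 8, *Plcb4*, against 8.15% of all genes. The libraries of the 2 genotypes did not overlap for this 1 gene, against 12.2% of all genes. In whole tissue, fewer cells of a class and less RNA in each cell cannot be told apart.

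The zebrin-positive genes are given first, in TMM-normalized CPM. *Aldoc* was at 2614, 2528 and 2319 CPM in the WT cerebella and at 2567, 2729 and 2540.4 CPM in the *Snx14*-KO cerebella. The groups overlapped, and the log2 fold change was 0.07 (standard error 0.0782, 95% interval -0.11 to 0.25, adjusted p = 0.918, edgeR). Astrocytes also express *Aldoc*, and the 12 Bergmann glia and astrocyte markers summed to 6945 to 7600.5 CPM in WT and 7875 to 9242 CPM in *Snx14*-KO cerebella, with 9 of 12 higher and 6 of these at an unadjusted p under 0.05 in edgeR. None of the 12 passed the test, *Gfap* (log2 fold change 0.99, adjusted p = 0.358, edgeR) and *Glul* (0.32, adjusted p = 0.259, edgeR) included. Their median log2 fold change of 0.25 ran from 0.14 without *Snx14*-KO replicate 3 to 0.29 without *Snx14*-KO replicate 1. The part of these cells in the *Aldoc* value was not tested.

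*Slc1a6*, the member with the largest difference between the tissues, was at 238, 209 and 167 CPM in WT and at 197, 231 and 188 CPM in *Snx14*-KO cerebella. The 3 *Snx14*-KO values lay inside the WT range. The log2 fold change was 0.00 (standard error 0.129, 95% interval -0.29 to 0.29, adjusted p = 0.999, edgeR), and its sign turned under 6 of the 12 alternatives tried. *Plcb3* was at 97.0, 94.8 and 66.7 CPM in WT and at 83.4, 90.6 and 85.2 CPM in *Snx14*-KO cerebella, again inside the WT range, with a log2 fold change of 0.00 (95% interval -0.29 to 0.30, adjusted p = 0.998, edgeR). For both genes, and for *Aldoc*, WT replicate 3 was the lowest of the 6 cerebella. Without it the log2 fold changes were -0.14 for *Slc1a6* and -0.16 for *Plcb3*, with adjusted p of 0.836 and 0.684 (edgeR), and 0.01 for *Aldoc*.

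*Ncs1* was at 213, 196 and 210.3 CPM in WT and at 229, 209 and 214 CPM in *Snx14*-KO cerebella. The values overlapped, with a log2 fold change of 0.07 (95% interval -0.08 to 0.22, adjusted p = 0.90, edgeR), which was 0.03 without *Snx14*-KO replicate 1. *Hspb1*, which in the cerebellum marks zebrin-positive cells of the posterior lobules and is also made under stress by other cells, was at 5.57, 7.23 and 13.4 CPM in WT and at 8.99, 13.6 and 10.8 CPM in *Snx14*-KO cerebella. Its WT spread was the widest of the 8 genes, with a coefficient of variation of 47.1%, and the log2 fold change of 0.35 (95% interval -0.32 to 1.02, adjusted p = 0.880, edgeR) ran from 0.11 without WT replicate 1 to 0.79 without WT replicate 3. Of 11 further heat shock genes, 5 were higher and 6 lower, none passed the test and none had an unadjusted p under 0.05 in edgeR, with a median log2 fold change of -0.04 that ran from -0.08 without WT replicate 2 to 0.07 without *Snx14*-KO replicate 1.

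Among the zebrin-negative genes, *Plcb4* was at 323, 343 and 336 CPM in WT and at 295, 314 and 274 CPM in *Snx14*-KO cerebella. Every *Snx14*-KO value lay below every WT value. The difference was small, with a log2 fold change of -0.18 (standard error 0.0706, 95% interval -0.34 to -0.02, unadjusted p = 0.0291 and adjusted p = 0.516, edgeR), and did not pass the test. Left-out libraries moved it between -0.24 and -0.14, and in 4 of these 6 fits the unadjusted p was no longer under 0.05, at 0.0570 to 0.0909 (edgeR). *Ebf2* was at 14.1, 16.2 and 18.7 CPM in WT and at 14.8, 13.7 and 10.7 CPM in *Snx14*-KO cerebella. One *Snx14*-KO value lay inside the WT range and the others below it, with a log2 fold change of -0.32 (standard error 0.159, 95% interval -0.68 to 0.04, unadjusted p = 0.0722 and adjusted p = 0.681, edgeR). Left-out libraries moved the *Ebf2* value between -0.43 and -0.20. Without WT replicate 1 and without *Snx14*-KO replicate 1 the unadjusted p was 0.0318 and 0.0397, with adjusted p of 0.5965 and 0.6546 (edgeR). Of the *Ebf2* exon bases, 6.12% are shared with the antisense gene *Gm10860*, and the counting did not use the strand. *Nefh*, which other large neurons also express, was at 180.4, 169.5 and 182 CPM in WT and at 187, 170.3 and 164 CPM in *Snx14*-KO cerebella, overlapping, with a log2 fold change of -0.03 (95% interval -0.19 to 0.13, adjusted p = 0.967, edgeR). *Snx14*-KO replicate 3 was the lowest of the 6 cerebella for all 3 zebrin-negative genes. It was also lowest for the summed 17 Purkinje cell markers, at 11608 CPM against 14114 and 14871 CPM in the other *Snx14*-KO and 14263 to 15784 CPM in the WT cerebella, and it held 651 CPM of the 10 microglia markers against 287 CPM or less in every other cerebellum. Without it the log2 fold changes were -0.14 for *Plcb4*, -0.20 for *Ebf2* and 0.00 for *Nefh*.

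**Figure D2:**
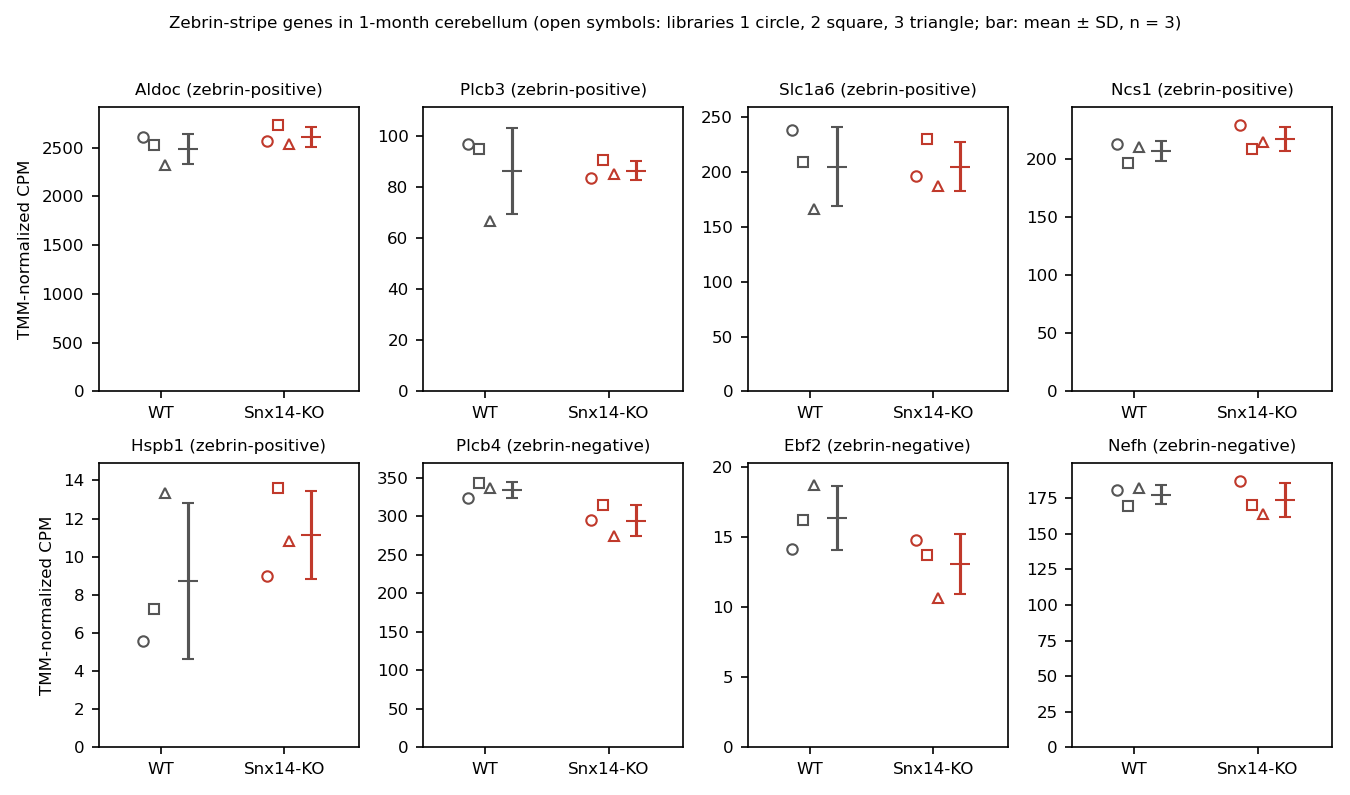
TMM-normalized CPM of the 8 genes in the 3 WT and 3 Snx14-KO cerebella, with 1 open symbol per library and the mean ± SD beside them, each axis starting at 0. Plcb4 is the gene whose WT and Snx14-KO libraries do not overlap.

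By class, the 5 zebrin-positive genes had log2 fold changes from 0.00 to 0.35 in cerebellum, with a median of 0.07, and the 3 zebrin-negative genes from -0.32 to -0.03, with a median of -0.18. With a library left out, the zebrin-positive median ran from 0.01 without WT replicate 3 to 0.11 without WT replicate 1, and the zebrin-negative median from -0.24 without *Snx14*-KO replicate 2 to -0.14 without *Snx14*-KO replicate 3. Over all genes tested, 49.9% had a value above 0. The median over all 18201 genes was 0.00. The signs thus separated the classes, but the values of *Slc1a6* and *Plcb3* were at 0 within their error, and both were slightly below 0 with DESeq2 and with its size factors in edgeR. The mean log2(CPM + 1) of the zebrin-positive genes minus that of the zebrin-negative genes was 0.68, 0.61 and 0.51 in the WT cerebella and 0.72, 0.94 and 0.99 in the *Snx14*-KO cerebella. Its mean was 0.60 ± 0.0865 in WT cerebella (SD, n = 3) and 0.88 ± 0.140 in those of *Snx14*-KO mice (SD, n = 3), a difference of 0.29. All *Snx14*-KO values lay above all WT values. This is a description over genes chosen with earlier results known, without a test.

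The separation depended on which genes stood for a class. With only *Slc1a6* and *Plcb3* against *Plcb4* and *Ebf2*, the difference between classes was 1.13, 0.88 and 0.39 in WT and 0.92, 1.10 and 1.17 in *Snx14*-KO cerebella, and the genotypes overlapped. Without *Hspb1*, an alternative chosen after seeing the data, it was 1.82, 1.66 and 1.36 in WT and 1.72, 1.84 and 1.93 in *Snx14*-KO cerebella, which also overlapped, and the difference between genotypes was 0.22. The zebrin-negative mean was 6.59, 6.65 and 6.74 in WT and 6.58, 6.53 and 6.34 in *Snx14*-KO cerebella, and the zebrin-positive mean was 7.26, 7.25 and 7.24 in WT and 7.30, 7.47 and 7.32 in *Snx14*-KO cerebella. Without *Hspb1* the zebrin-positive mean was 8.40, 8.31 and 8.09 in WT and 8.30, 8.37 and 8.26 in *Snx14*-KO cerebella, and the genotypes overlapped.

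**Figure D3:**
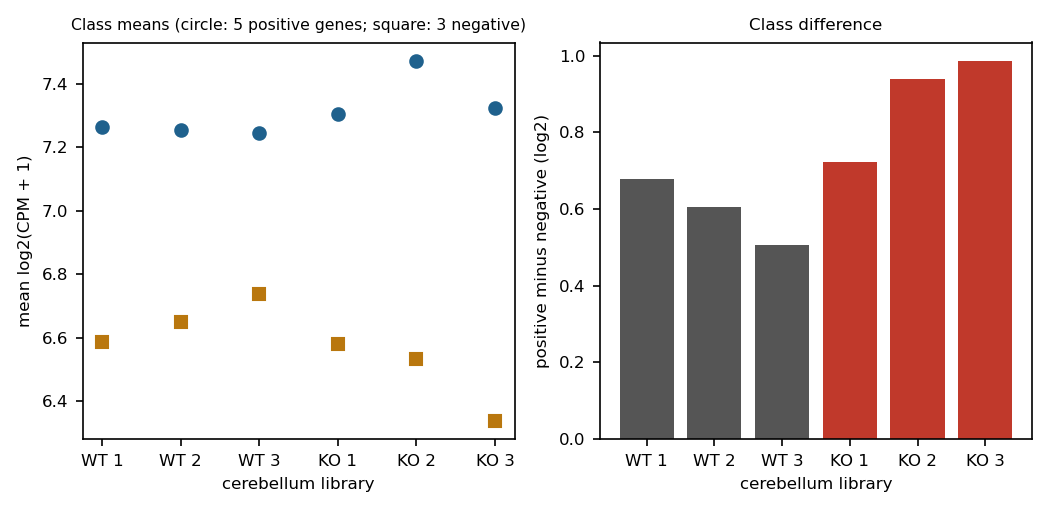
Left, mean log2(CPM + 1) of the 5 zebrin-positive genes (circles) and the 3 zebrin-negative genes (squares) in each cerebellum library. Right, their difference per library, which was 0.51 to 0.68 in WT and 0.72 to 0.99 in Snx14-KO cerebella.

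The markers of Purkinje cells as a whole were set beside the classes. Of the 17 markers, all were tested, 12 were lower and 5 higher, 1 lower and 2 higher at an unadjusted p under 0.05 in edgeR, and none passed the test by edgeR. DESeq2 called 1. The higher pair was *Cbln4* (1.51) and *Foxp2* (0.99), which other neurons also express, and the other was *Itpr1* (-0.25). Their median log2 fold change was -0.06, running from -0.17 without *Snx14*-KO replicate 2 to 0.02 without *Snx14*-KO replicate 3. The calcium-binding marker *Calb1* (-0.06) and the L7 gene *Pcp2* (0.00) were measured in every cerebellum, at 1193 to 1610.2 CPM and 437 to 634 CPM. Taken relative to the mean log2(CPM + 1) of these 17 genes in the same library, an alternative chosen after seeing the data, *Plcb4* was 0.00, 0.07 and 0.27 in WT and -0.17, -0.03 and -0.07 in *Snx14*-KO cerebella. The differences between genotypes on that scale were -0.20 for *Plcb4*, -0.32 for *Ebf2*, -0.05 for *Nefh*, 0.05 for *Aldoc* and *Ncs1*, 0.01 for *Plcb3*, -0.01 for *Slc1a6* and 0.37 for *Hspb1*. These values depended on *Cbln4* and *Foxp2*, which were high in *Snx14*-KO replicates 1 and 3. Relative to the other 15 markers, also chosen after seeing the data, *Plcb4* was -0.77, -0.71 and -0.52 in WT and -0.80, -0.81 and -0.64 in *Snx14*-KO cerebella, the genotypes overlapped, and the difference was -0.09. On this scale it was -0.21 for *Ebf2*, 0.06 for *Nefh*, 0.17 for *Aldoc* and *Ncs1*, 0.12 for *Plcb3*, 0.11 for *Slc1a6* and 0.48 for *Hspb1*. Of the 8 genes, only *Aldoc* did not overlap between genotypes here, at 2.243, 2.17 and 2.265 in WT and 2.315, 2.306 and 2.563 in *Snx14*-KO cerebella. No test was made of these values. The mean of the 15 markers was itself lower by 0.0972 in *Snx14*-KO cerebella (difference -0.0972), overlapping between genotypes. Marker genes of other cell types are given beside these values. In *Snx14*-KO cerebella, 10 of 12 granule cell genes (median -0.25) and all 10 oligodendrocyte genes (median -0.16) were lower, 9 of 12 endothelial and mural genes (median 0.18) were higher, and so were all 10 microglia genes (median 0.81) and all 10 meningeal fibroblast genes (median 1.15). At an unadjusted p under 0.05 edgeR counted 4 of the 12 granule cell and 0 of the 10 oligodendrocyte genes as lower. It counted 2 of the 12 endothelial and mural, 6 of the 10 microglia and 8 of the 10 meningeal genes as higher. Over all genes it counted 2.37% as lower and 5.78% as higher. The microglia median fell to 0.24 without *Snx14*-KO replicate 3. With a library left out, the granule cell median ran from -0.40 without *Snx14*-KO replicate 2 to -0.12 without *Snx14*-KO replicate 1, the oligodendrocyte median from -0.26 without WT replicate 3 to -0.06 without WT replicate 1, the endothelial and mural median from 0.07 without *Snx14*-KO replicate 2 to 0.28 without *Snx14*-KO replicate 3, and the meningeal median from 0.95 to 1.41. None of the genes in these lists passed the test by edgeR, while DESeq2 called 8 of the meningeal genes, which summed to 169 to 349 CPM in WT and 464 to 492 CPM in *Snx14*-KO cerebella. Of the 9 genes of cerebellar nuclei, Golgi cells and interneurons, 4 were higher and 5 lower (median -0.02, and 0.20 without *Snx14*-KO replicate 3). All 4 higher genes and 1 of the 5 lower genes had an unadjusted p under 0.05 in edgeR. In that list *Slc17a6*, *Lhx9* and *Meis2* were highest in *Snx14*-KO replicates 1 and 3. The part of these cells in the values of the 8 genes was not tested.

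The genes given here that share the stripes or the pathway but are not among the 8 gave a mixed picture. The other striped genes among them are all zebrin-positive, and further zebrin-negative genes are not reported here. Of 3 other zebrin-positive genes, the GABA-B receptor subunit *Gabbr2* (-0.17) and the protein kinase C delta gene *Prkcd* (-0.14) had negative values, whereas the sphingosine kinase *Sphk1* was at 9.58, 7.05 and 5.66 CPM in WT and at 14.7, 9.30 and 9.62 CPM in *Snx14*-KO cerebella (0.60, unadjusted p = 0.0327 and adjusted p = 0.538, edgeR). The class pattern of the 8 genes was therefore not shared by *Gabbr2* and *Prkcd*. Of the signaling genes beside the phospholipases, the calcium release channel *Itpr1* had a value of -0.25 (unadjusted p = 0.0320, adjusted p = 0.533, edgeR). *Plcb1* was at 0.13 and *Plcb2*, under 1.1 TPM in every cerebellum, at 1.18. *Plcb2* was at 0.63, 0.54 and 0.45 CPM in WT and at 0.95, 0.64 and 2.13 CPM in *Snx14*-KO cerebella, with replicate 3 far above the rest. Over the 11 genes of this pathway reported here, *Plcb3* and *Plcb4* among them, 8 were lower and 3 higher, with a median of -0.11 that ran from -0.20 without *Snx14*-KO replicate 2 to -0.01 without *Snx14*-KO replicate 3, and none passed the test by edgeR or DESeq2.

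The nearest relatives of the members did not pass the test either. *Aldoa* (0.03) stood beside *Aldoc*, and *Nefl* (0.04) and *Nefm* (0.06) beside *Nefh*. The astrocyte and neuronal glutamate transporters *Slc1a2* (0.29, adjusted p = 0.455, edgeR), *Slc1a3* (0.12) and *Slc1a1* (0.28, adjusted p = 0.428, edgeR) had positive values while *Slc1a6* was at 0.00, and *Slc1a1* did not overlap between genotypes. *Ebf1* was at -0.16, *Ebf3* at 0.19 and *Ebf4* at 0.21. *Ebf4* did not overlap between genotypes either, against 12.2% of all genes. Of the 6 calcium sensors tested, 4 were higher and 2 lower, with *Hpcal4* (0.43, unadjusted p = 0.0182 and adjusted p = 0.455, edgeR) the furthest from 0 and highest in *Snx14*-KO replicates 1 and 3. Of the 6 small heat shock genes tested, *Hspb1* had the highest value and *Hspb3* the lowest (-0.33).

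The profiles over the 6 cerebella were also compared with those of 13193 genes with a mean of at least 5 CPM. Closest to *Aldoc* by Pearson correlation of log2(CPM + 1) were *Ilk* (0.990), *Gm37335* (0.989) and *Arpp19* (0.984). Closest to *Plcb4* were *Trim62* (0.992), *Pld5* (0.991) and *Exoc3l* (0.991). With 6 libraries such values are common, and 112 genes were above 0.9 for *Aldoc* and 154 for *Plcb4*.

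In cortex, the study's comparison tissue, *Snx14*-KO replicate 2 stood apart from the other 5 libraries. It held 1002 CPM of the astrocyte gene *Gfap* against 141 to 250 CPM, 36.0 CPM of the collagen gene *Col1a1* against 6.66 to 9.84 CPM, and the lowest sum of the 10 oligodendrocyte genes. All 10 oligodendrocyte genes were lower in *Snx14*-KO cortices, with a median of -0.30 that was -0.14 without this library, and the median over the 10 genes of meningeal fibroblasts, each of them higher, was 0.59 and dropped to 0.12 without it. Their part in the values below was not tested.

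None of the 8 genes passed the test in cortex either (edgeR), where 0.00548% of the 18255 genes tested passed it. DESeq2 called 0.0493% of all genes and none of the members to which it gave an adjusted p, which left out *Ebf2*. At an unadjusted p under 0.05 edgeR counted 1 of the 8, *Ncs1*, against 4.5% of all genes. *Ncs1* was at 367, 355 and 343 CPM in WT and at 334, 297 and 320.2 CPM in *Snx14*-KO cortices, with all *Snx14*-KO values below all WT values (log2 fold change -0.16, standard error 0.0669, unadjusted p = 0.0310 and adjusted p = 0.996, edgeR). *Slc1a6* was at 5.33, 4.46 and 5.53 CPM in WT and at 7.22, 6.24 and 5.79 CPM in *Snx14*-KO cortices, all above WT (0.33, standard error 0.169, adjusted p = 0.996, edgeR). *Snx14*-KO replicate 2 held the lowest *Ncs1* value, and without it the log2 fold changes were -0.12 for *Ncs1* (unadjusted p = 0.0966, edgeR) and 0.35 for *Slc1a6*. The unadjusted p of *Ncs1* was no longer under 0.05 in 3 of the 6 fits with a library left out (0.0735 to 0.1035, edgeR). These 2 of 8 genes did not overlap between genotypes, against 9.26% of all genes. *Plcb4* was at 73.1, 79.3 and 85.1 CPM in WT and at 83.1, 77.8 and 89.0 CPM in *Snx14*-KO cortices, overlapping, with a log2 fold change of 0.07 (standard error 0.0782) that ran from 0.02 without WT replicate 1 to 0.13 without WT replicate 3. The remaining members had log2 fold changes of 0.03 for *Aldoc*, 0.05 for *Plcb3*, 0.33 for *Hspb1*, -0.19 for *Ebf2* and 0.06 for *Nefh*. That of *Hspb1* ran from 0.007 without WT replicate 1 to 0.78 without WT replicate 3. The class medians were 0.05 for the 5 zebrin-positive and 0.06 for the 3 zebrin-negative genes, against 0.00 over all genes, and 6 of the 8 had a value above 0, against 50% of all genes. With a library left out, the zebrin-positive median in cortex ran from 0.01 without WT replicate 1 to 0.15 without *Snx14*-KO replicate 2, and the zebrin-negative median from -0.0144 without WT replicate 2 to 0.13 without *Snx14*-KO replicate 3.

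**Figure D4:**
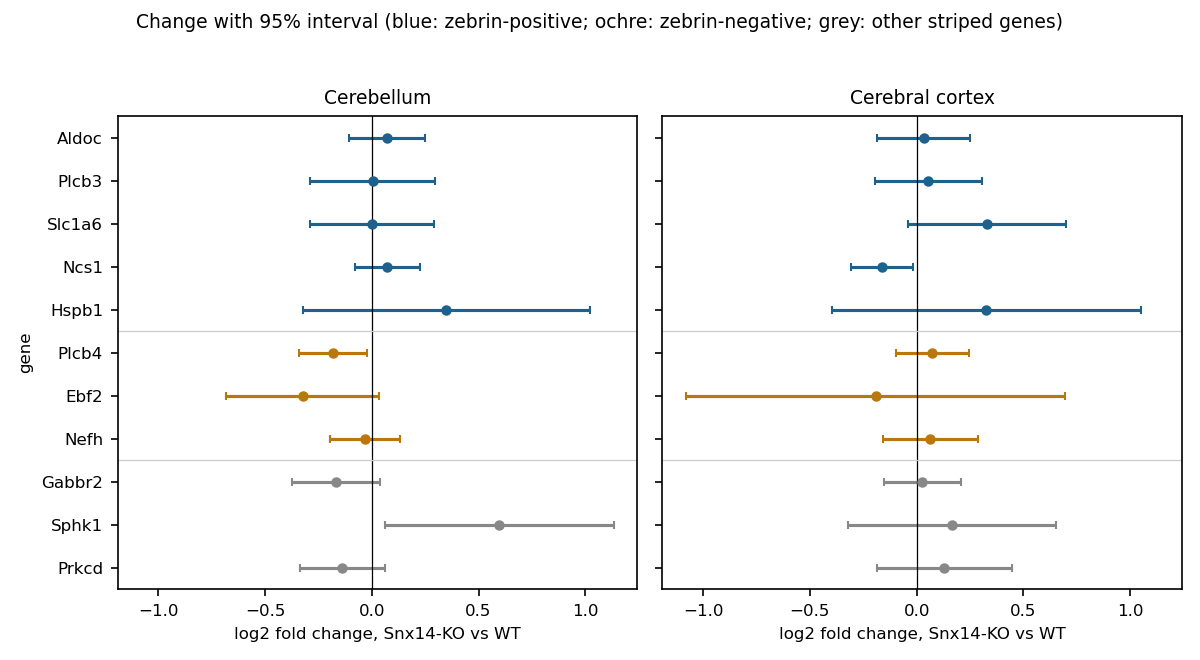
Log2 fold changes between Snx14-KO and WT libraries in cerebellum (left) and cortex (right) with their 95% intervals from edgeR, for the 5 zebrin-positive genes, the 3 zebrin-negative genes and 3 other striped genes, all zebrin-positive. In cerebellum the intervals of Plcb4 and Sphk1 do not include 0, in cortex that of Ncs1 does not, and none of these genes passed the adjusted test.

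The difference of the *Snx14*-KO effect between the tissues was tested by itself over all 12 libraries. None of the 8 genes passed it (edgeR, adjusted p under 0.05), where 0% of the 19380 genes tested did, and DESeq2 called none of the 8 and 0.186% of all genes. At an unadjusted p under 0.05 edgeR counted 2 of the 8, against 5.68% of all genes. The effect on *Plcb4* was lower in cerebellum than in cortex by 0.27 on the log2 scale (difference -0.27, 95% interval -0.50 to -0.03, adjusted p = 0.785, edgeR), and that on *Ncs1* was higher (0.22, 95% interval 0.01 to 0.43, adjusted p = 0.826, edgeR). Without *Snx14*-KO cortex replicate 2 these differences were -0.32 for *Plcb4* and 0.17 for *Ncs1*, the latter with an unadjusted p of 0.0912 (edgeR), and without *Snx14*-KO cortex replicate 3 that of *Plcb4* was -0.22 with an unadjusted p of 0.0748 (edgeR). With each of the 12 libraries left out in turn, the unadjusted p was no longer under 0.05 in 4 fits for *Plcb4* and in 6 for *Ncs1* (edgeR). For the other 6 the difference ran from -0.34 for *Slc1a6* to 0.02 for *Aldoc*. That of *Slc1a6* was -0.48 without WT cerebellum replicate 3 (unadjusted p = 0.0160 and adjusted p = 0.756, edgeR) and -0.21 without WT cerebellum replicate 1, and that of *Nefh*, at -0.11, ran from -0.21 without *Snx14*-KO cortex replicate 3 to -0.03 without WT cortex replicate 2.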

How the data were processed

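The authors mapped the reads to the mouse genome (GRCm38) and deposited counts per gene from featureCounts (Subread 2.0.1), not normalized. Strand was not used in counting, and overlapping genes each received a shared pair. From these counts, TMM-normalized CPM and TPM (per exon length) were computed here. Genes passing edgeR's filterByExpr were tested with edgeR 4.0.16 (quasi-likelihood, R 4.3.3), with p-values adjusted by the Benjamini-Hochberg method over all genes tested, and called past a log2 fold change of 0.5 in size. DESeq2 1.42.0, its size factors in edgeR, all genes with a count, each library left out and a replicate block were alternatives. The members, marker lists and named genes (the members, their relatives, and the 3 closest profiles to Aldoc and Plcb4) were chosen with earlier results of these data known. The reported fits hold no block. Cerebellum and cortex labels carry the same mouse numbers within a genotype, which were read as the same mouse for an alternative fit with the mouse as a block, although no label says so outright. The correlation of same-numbered deviations was 0.0133 to 0.341, over 0.1 in 4 of 6 pairs, and 4 of 6 cerebella correlated best with their own number. No 2 libraries held the same values. The counts limit the precision through sampling as well as through the spread between mice, and p-values measure the spread between 3 libraries. Features that name no gene, 0.0506% to 0.0632% of counts, were left out. Some relatives of the members are not reported here.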

Additional observations from a re-analysis of the deposited data

How the results depend on the processing

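The counts of members called were the same under every alternative run, with 0 of 8 between genotypes in cerebellum, in cortex and for the difference between tissues, and 8 of 8 between WT tissues. Those over all genes were not the same. In cerebellum edgeR called 0 higher and 1 lower in the main fit, and 244 and 10 without *Snx14*-KO replicate 2. With all genes with a count it called 329 and 18. For the difference between tissues it called 0 in the main fit. Without *Snx14*-KO cerebellum replicate 2 it called 251 higher and 6 lower, and with all genes with a count 373 and 45. The class difference between genotypes stayed between 0.24 and 0.37 with a library left out, and was 0.29 with DESeq2's size factors, 0.30 with a pseudocount of 0.1, 0.26 with 4 genes and 0.22 without *Hspb1*. The mouse numbers did not pair WT with *Snx14*-KO libraries (correlation of deviations -0.0441 to 0.0452 in cerebellum, -0.112 to 0.0681 in cortex), and with a replicate block the value of *Plcb4* in cerebellum was -0.18 and 0 of 8 were called. With the block for the mouse, the difference between tissues for *Hspb1* turned to -0.0102. Relative to the Purkinje cell list without *Cbln4* and *Foxp2*, the genotype difference of *Nefh* in cerebellum turned to 0.06446. The block changed no call. The signs of 2 genes at 0 in cerebellum also turned, for *Slc1a6* with DESeq2 (-0.009029), its size factors (-0.009033), all genes with a count (-0.00553) and relative to the Purkinje cell list (-0.005514), and for *Plcb3* with DESeq2 (-0.007644), its size factors (-0.007616) and all genes with a count (-0.004131).

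With a library left out, the sign of some further values turned, none of them called. In cerebellum the ranges were -0.16 to 0.10 for *Plcb3*, -0.14 to 0.12 for *Slc1a6* and -0.0941 to 0.0041 for *Nefh*. In cortex they were -0.046 to 0.15 for *Aldoc*, -0.0416 to 0.13 for *Plcb3*, -0.44 to 0.13 for *Ebf2* and -0.0145 to 0.17 for *Nefh*. For the difference between tissues they were -0.10 to 0.10 for *Aldoc*, -0.23 to 0.0351 for *Plcb3*, -0.44 to 0.45 for *Hspb1* and -0.46 to 0.10 for *Ebf2*. The causes were not tested.

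Counts were lowest for *Hspb1*, with 97 to 236 per cerebellum and 25 to 71 per cortex, for *Ebf2*, with 185 to 330 and 9 to 32, and for *Slc1a6* in cortex, with 87 to 121. Members with an interval that includes 0 are not shown to be unchanged.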
